A study of Mus musculus with 3 samples.

Results

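Transcripts of 10 chemokines and cytokines that fibroblasts can make were followed in mouse ES cell cultures after knockdown of NUP153. NUP153 is a nucleoporin of the nuclear basket of the nuclear pore complex. The genes were taken by symbol from a list (Cxcl12, Cxcl1, Cxcl5, Cxcl10, Ccl2, Ccl5, Ccl7, Il6, Lif and Csf1), and they are 10 of the 24421 genes in the deposited counts. All 10 reached the minimum of 10 reads on average per library, as did 16670 genes in all. Gene expression was measured by RNA-Seq of total RNA depleted of ribosomal RNA in undifferentiated EL16.7 cells, a female wild type ES line of F2 129S1/CastEiJ x 129S1 background. Cells were transduced with lentivirus for a control (scramble) shRNA (control), NUP153 shRNA-1 (KD-1) or NUP153 shRNA-2 (KD-2), with 1 library for each. All 3 cultures were grown with 20% serum and LIF on irradiated feeder MEFs (embryonic fibroblasts) from Tg(DR4)1Jae/J mice and underwent selection in puromycin (2 μg/ml) over 2 days. By the labels the groups differ in the hairpin alone. RNA of ES cells and of feeder fibroblasts is not separated in the files, and in RNA of a whole culture fewer cells of a type and less RNA per cell cannot be told apart. With 1 library per group there is no spread between replicates, so the calls between single libraries are made by fold change without a p-value and concern these libraries and not the conditions.

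Chemokines are small secreted proteins that direct the migration of leukocytes and other cells through G protein-coupled receptors. CXC chemokines such as Cxcl1 and Cxcl5 attract neutrophils, CC chemokines such as Ccl2 and Ccl7 attract monocytes, and Cxcl12 holds stem and progenitor cells in their niche. Il6 and Lif belong to the same cytokine family, signal through gp130 (Il6st) to STAT3, and LIF is added to mouse ES cells to maintain self-renewal. Csf1 is the growth factor of macrophages. Fibroblasts make many of these factors, mostly under control of NF-κB and AP-1, while Cxcl10 is also induced by interferon.

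The total on genes was 72344726 with control shRNA, 85258834 with KD-1 and 69839336 with KD-2. Nup153, the target of the shRNA, had 27870 reads with control shRNA, 16451 with KD-1 and 11126 with KD-2, which is log2 -0.99 for KD-1 and -1.43 for KD-2, so its reads go with the labels. Fold changes were computed from reads scaled by upper-quartile factors with a pseudocount of 0.5 reads, and a gene past 1.5-fold was called higher or lower. The interval given with a log2 fold change is an exact 95% interval that covers counting error only. Defining markers of pluripotent cells were abundant, with 44622, 61737 and 39339 reads of Nanog for control, KD-1 and KD-2. Fibroblast markers were also present, led by Col3a1 with 54628, 25523 and 114064 reads.

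Promoters of 6 of the 10 genes were in the RefSeq promoter set (GRCm38.p6) used here. It held none for Cxcl5, Ccl2, Ccl5 and Ccl7. Of the 6, 4 are shown: Cxcl12 and Il6 lie at the opposite ends of the KD-1 comparison, and Cxcl1 and Cxcl10 are called in KD-2. Those of Lif and Csf1 are not printed. Csf1 is also called in KD-2, and lower in KD-1, and it has a match to the κB motif of NF-κB. Each sequence is the 250 bases before the annotated start, written 5′ to 3′ on the strand of the gene. These are chr6:117168285-117168534 (plus strand) for Cxcl12, chr5:90890995-90891244 (plus) for Cxcl1, chr5:92348890-92349139 (minus) for Cxcl10 and chr5:30012864-30013113 (plus) for Il6. Capitals mark matches to the κB motif of NF-κB, to the AP-1 motif TGANTCA and to GAAANNGAA, the core of the interferon response element.
Cxcl12: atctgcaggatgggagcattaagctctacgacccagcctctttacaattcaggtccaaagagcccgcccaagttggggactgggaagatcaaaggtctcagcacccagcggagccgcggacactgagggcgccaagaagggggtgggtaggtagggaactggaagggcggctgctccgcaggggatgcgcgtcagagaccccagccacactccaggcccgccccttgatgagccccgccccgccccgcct
Cxcl1: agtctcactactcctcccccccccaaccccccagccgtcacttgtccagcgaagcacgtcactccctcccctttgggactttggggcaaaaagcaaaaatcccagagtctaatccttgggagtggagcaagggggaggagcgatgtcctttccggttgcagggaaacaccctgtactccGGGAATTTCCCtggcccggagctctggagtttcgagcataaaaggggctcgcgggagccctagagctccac
Cxcl10: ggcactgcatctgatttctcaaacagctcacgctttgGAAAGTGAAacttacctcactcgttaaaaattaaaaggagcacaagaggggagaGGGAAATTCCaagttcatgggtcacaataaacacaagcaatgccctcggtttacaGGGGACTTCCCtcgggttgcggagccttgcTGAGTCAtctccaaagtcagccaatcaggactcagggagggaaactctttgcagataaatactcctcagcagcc
Il6: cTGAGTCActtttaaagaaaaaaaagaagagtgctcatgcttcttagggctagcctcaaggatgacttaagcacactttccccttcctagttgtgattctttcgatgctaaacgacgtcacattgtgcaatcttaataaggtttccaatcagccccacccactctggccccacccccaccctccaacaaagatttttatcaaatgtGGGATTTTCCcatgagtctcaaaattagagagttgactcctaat

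Both strands were searched for each motif. The κB motif was found in 5 of the 6 promoters (Cxcl1, Cxcl10, Il6, Lif and Csf1) and in 7.25% of all 32851 promoters of the same length. In Cxcl1 there are 2 matches that overlap, from 71 to 61 bases before the start, and in Cxcl10 there are 3, of which 2 overlap. In Il6 the match lies 44 to 35 bases before the start. The AP-1 letters TGANTCA were found in Cxcl10, Il6 and Lif, 3 of the 6, against 6.75% of all promoters. GAAANNGAA was found in Cxcl10 alone of the 6, from 213 to 205 bases before the start, against 7.13% of all promoters. The Cxcl12 window held none of these 3 motifs. It held 5 copies of the GC box GGGCGG, of which 2 overlap, and Csf1 held 2, against 32.7% of all promoters with at least 1. TATAAA was in 0 of the 6 and in 12.4% of all promoters. A match describes the letters of the sequence and is not a measured binding site, and no match says only that these letters are not in this window.

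Per length, Cxcl5 and Ccl2 had the highest levels of the 10 genes and Ccl5 the lowest in all 3 libraries. In control, Cxcl5 was at 41.8 RPKM (upper-quartile-scaled reads per exon length and a depth common to the 3 libraries), and Ccl2 at 26.4 RPKM. Ccl7 with 11.2 RPKM and Cxcl1 with 10.9 RPKM lay close together, as did Csf1 with 6.05 RPKM and Cxcl12 with 6.04 RPKM. Lif was at 1.21 RPKM, Cxcl10 at 1.03, Il6 at 0.412 and Ccl5 at 0.188 RPKM. In KD-1, Ccl2 (25.2 RPKM) stood above Cxcl5 (23.1 RPKM) and Cxcl12 was at 2.56 RPKM. In KD-2, Cxcl5 was at 62.5 RPKM, Ccl2 at 36.7 RPKM and Cxcl12 at 13.5 RPKM, above Csf1 at 9.59 RPKM. Whether neighbours in this order differ beyond the spread of replicates could not be tested.

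**Figure D1:**
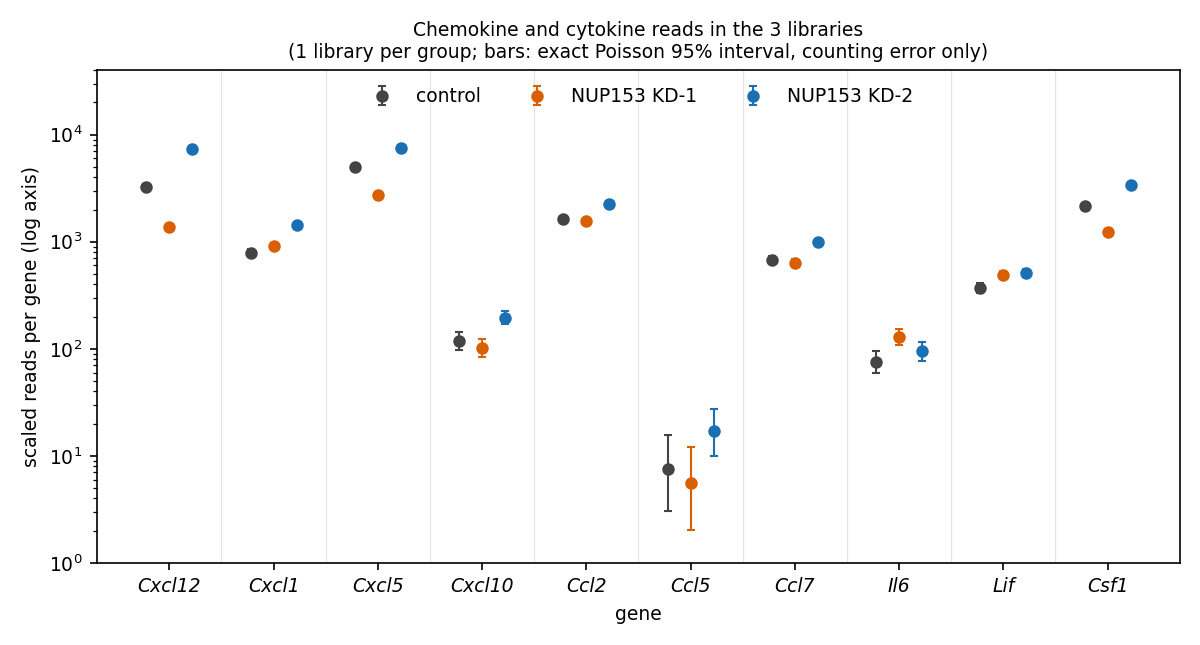
Reads of each gene scaled by upper-quartile factors (log axis) for control, KD-1 and KD-2, 1 point per library. Bars are exact Poisson 95% intervals for counting error only and are smaller than the points for the abundant genes. KD-2 is the highest library for all of the genes except Il6, where KD-1 is the highest.

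To see how the 10 genes differ from control in each knockdown, the calls were counted against those of all 16670 genes that reached the minimum. In KD-1, 1 gene (Il6) was called higher and 3 (Cxcl12, Cxcl5 and Csf1) were called lower, where 8.63% of all genes were called higher and 5.62% lower. The median log2 fold change of the 10 genes in KD-1 was -0.15, and that of all genes was 0.02. In KD-2, 5 genes (Cxcl12, Cxcl1, Cxcl10, Ccl5 and Csf1) were called higher and 0 lower, where 17.1% of all genes were called higher and 10.2% lower. Of these, Ccl5 met the minimum only through its 17 reads in KD-2, against 7 in control and 6 in KD-1. It was not called there at a minimum mean of 100 reads. The median of the 10 genes in KD-2 was 0.62 against -0.02 for all genes, and all 10 had a log2 fold change above 0. These medians and counts are descriptions, and both comparisons share the control library. Scaling by total reads on genes moved the median of all genes in KD-2 to 0.14 and the calls there to 9 higher, all but Il6, where 23.6% of all genes were called higher and 4.92% lower.

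**Figure D2:**
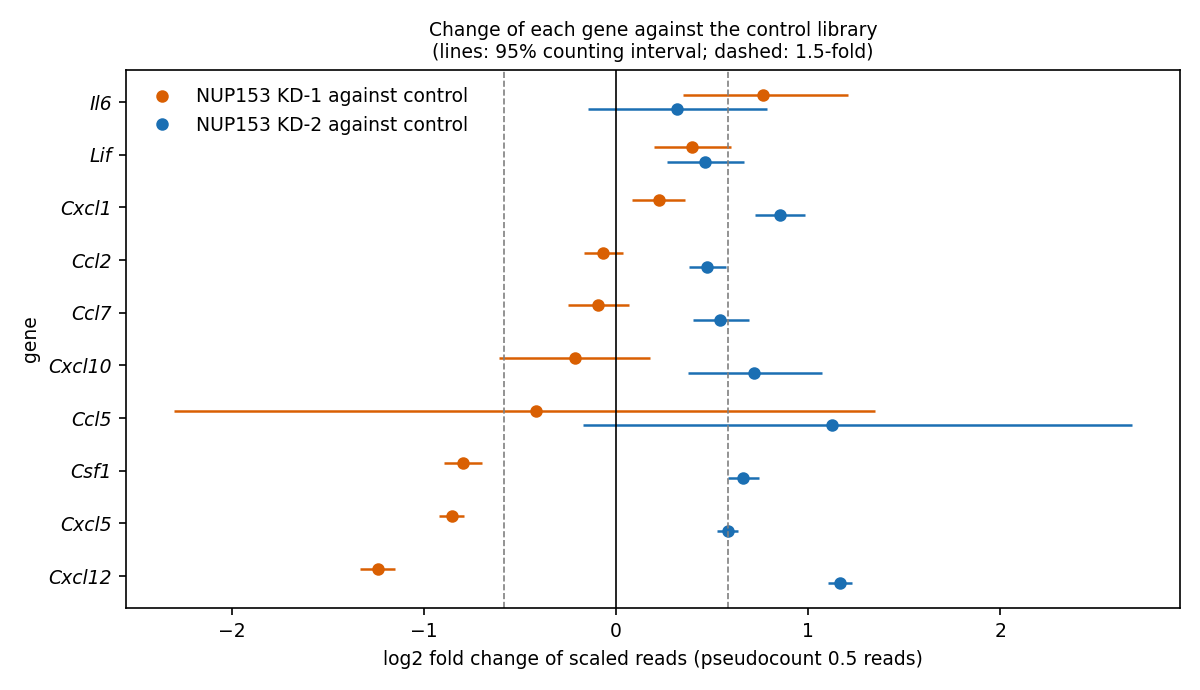
Log2 fold change of scaled reads for each gene in KD-1 and in KD-2 against the same control library, with 95% counting intervals as lines and 1.5-fold as dashed lines. Cxcl12, Cxcl5 and Csf1 lie on the left in KD-1 and on the right in KD-2, Il6, Lif and Cxcl1 lie on the right in both, and the intervals of Ccl5 are the widest.

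Cxcl12 (chr6:117168535-117181367, GRCm38, plus strand) encodes a chemokine that is made by stromal cells without an inflammatory stimulus and binds Cxcr4 and Ackr3. It had 3026 reads with control shRNA, 1501 with KD-1 and 7304 with KD-2. KD-1 was the lowest library and KD-2 the highest, with control in between. The log2 fold change was -1.24 (-1.33 to -1.15) in KD-1, which is 2.36-fold lower than control, and 1.16 (1.10 to 1.23) in KD-2, which is 2.24-fold higher. Between the knockdowns, KD-1 had 5.29-fold less Cxcl12 than KD-2 (log2 -2.40). In each of these comparisons Cxcl12 had the largest log2 fold change of the 10 genes in size.

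Csf1 (chr3:107741048-107760469, minus strand), the ligand of the receptor Csf1r on macrophages, had 2000 reads with control shRNA, 1350 with KD-1 and 3410 with KD-2. As for Cxcl12, KD-1 was the lowest library and KD-2 the highest. Its log2 fold change was -0.80 (-0.90 to -0.70) in KD-1 and 0.66 (0.58 to 0.74) in KD-2. Its level in KD-1 was 2.75-fold below that in KD-2 (log2 -1.46, -1.55 to -1.37).

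Among the CXC chemokines that attract neutrophils through Cxcr2, Cxcl5 (chr5:90759360-90761624, plus strand) had 4610 reads with control shRNA, 2983 with KD-1 and 7423 with KD-2. The log2 fold change was -0.86 (-0.92 to -0.79) in KD-1, which is 1.81-fold lower, and 0.58 (0.53 to 0.63) in KD-2, which is just under 1.5-fold. Cxcl5 was called higher in KD-2 after TMM scaling. Cxcl1 (chr5:90891241-90893115, plus strand), an early NF-κB target in stimulated fibroblasts, had 729 reads with control shRNA, 996 with KD-1 and 1419 with KD-2. It differed from Cxcl5 in KD-1, where its log2 fold change was 0.22 (0.08 to 0.36) and not called. In KD-2 Cxcl1 was 1.81-fold higher than control (log2 0.85, 0.72 to 0.98). The 2 genes lie in 1 cluster on chromosome 5 and were both called lower in KD-1 relative to KD-2, with log2 fold changes of -1.44 for Cxcl5 and -0.63 for Cxcl1.

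Cxcl10 (chr5:92346638-92348889, minus strand), a chemokine for activated T cells that binds Cxcr3, had 110 reads with control shRNA, 111 with KD-1 and 195 with KD-2. Control and KD-1 differed by less than counting error (log2 -0.21, -0.61 to 0.18). In KD-2 Cxcl10 was 1.64-fold higher (log2 0.72, 0.37 to 1.07).

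Of the CC chemokines for monocytes, Ccl2 (chr11:82035571-82037453, plus strand), a ligand of Ccr2, had 1502 reads with control shRNA, 1679 with KD-1 and 2250 with KD-2. Ccl7 (chr11:82045712-82047525, plus strand), which binds Ccr1, Ccr2 and Ccr3, had 628, 690 and 986 reads in the same order. Both genes were within counting error of control in KD-1, at log2 -0.07 (-0.17 to 0.03) for Ccl2 and -0.09 (-0.25 to 0.07) for Ccl7. Both were above control in KD-2 but under 1.5-fold, at log2 0.48 (0.38 to 0.57) for Ccl2 and 0.54 (0.40 to 0.69) for Ccl7. Between the knockdowns Ccl7 was called lower in KD-1 (log2 -0.64, -0.78 to -0.49), and Ccl2 was just inside the threshold (log2 -0.54, -0.64 to -0.45).

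Ccl5 (chr11:83525778-83530518, minus strand), a chemokine for T cells and monocytes, was barely detected, at 7 reads with control shRNA, 6 with KD-1 and 17 with KD-2. Its mean of 10 reads put it at the minimum for a call. Its call in KD-2 (log2 1.12) has an interval from -0.17 to 2.69, so a difference from control was not detectable at this depth. In KD-1 the interval of Ccl5 reached from -2.30 to 1.35.

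Of the 10 genes, Il6, Lif and Cxcl1 alone were above control in KD-1. Il6 (chr5:30013114-30019981, plus strand), a cytokine of acute inflammation, had 70 reads with control shRNA, 140 with KD-1 and 94 with KD-2. It was 1.70-fold higher in KD-1 (log2 0.77, 0.35 to 1.21), the only call of that direction there. In KD-2 the value was log2 0.32 (-0.14 to 0.79), which includes no difference. Lif (chr11:4257557-4272514, plus strand), the cytokine that is also supplied in the medium, had 343 reads with control shRNA, 529 with KD-1 and 510 with KD-2. Lif was above control in both knockdowns but under 1.5-fold, at log2 0.40 (0.20 to 0.60) in KD-1 and 0.46 (0.27 to 0.67) in KD-2. The direct difference between the knockdowns was log2 -0.07 (-0.25 to 0.11) for Lif and 0.45 (0.07 to 0.85) for Il6, neither of which was called.

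Set directly against each other, the knockdown libraries differed in most of the 10 genes. In KD-1, 7 genes (Cxcl12, Cxcl1, Cxcl5, Cxcl10, Ccl5, Ccl7 and Csf1) were called lower than for KD-2 and 0 higher, where 16.1% of all genes were called lower and 13.9% higher. Here too Ccl5 met the minimum only through its 17 reads in KD-2, and it was not called at a minimum mean of 100 reads. The median of the 10 genes was -0.78, while that of all genes was 0.12. Summed over the 10 genes, scaled reads were 14070 with control shRNA, 9209 with KD-1 and 23690 with KD-2, and these sums are led by Cxcl5, Cxcl12 and Csf1.

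Because the cultures hold feeder fibroblasts, markers of fibroblasts were measured beside the 10 genes. Of the 20 markers 19 had enough reads, Tcf21 being near 0 with 3, 7 and 7 reads. In KD-1, 10 of the 19 were called lower and 0 higher, with a median of -0.62 and a range from -2.01 (Postn) to -0.12 (Twist2). In KD-2, 15 of the 19 were called higher and 0 lower, with a median of 0.79 and a range from 0.32 (Mfap5) to 1.87 (Loxl1). The most abundant were Col3a1, S100a4 and Col5a1, with log2 fold changes of -1.33, -0.68 and -0.15 in KD-1 and of 0.96, 0.35 and 1.58 in KD-2. Summed scaled reads of the 20 markers were 185700 with control shRNA, 101200 with KD-1 and 324000 with KD-2. Their part in the values of the 10 genes was not tested.

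Relative to the median of the fibroblast markers, the 10 genes ran from below to above it in KD-1. Cxcl12 lay 0.62 log2 units below that median (-0.62), and Cxcl5 and Csf1 lay near it at -0.24 and -0.18. Il6 lay 1.38 above it, Lif 1.01, Cxcl1 0.84, Ccl2 0.55 and Ccl7 0.52, and each of these 5 genes was above all 19 markers. Cxcl10 at 0.40 and Ccl5 at 0.20 lay in between. In KD-2, the 10 genes lay from -0.47 (Il6) to 0.38 (Cxcl12) of the marker median, so the spread was narrower there. When the libraries were scaled to equal fibroblast marker medians, a setting chosen after seeing the data, every gene was shifted by the same amount, and the median of all genes became 0.64 in KD-1, -0.81 in KD-2 and 1.71 between the knockdowns. On this scale 0 of the 10 genes were called in KD-2, where 1.69% of all genes were called higher and 64.8% lower. In KD-1 it gave 3 of the 10 higher (Cxcl1, Il6 and Lif), where 57.7% of all genes were called higher, and 1 lower (Cxcl12), where 0.918% were. For KD-1 relative to KD-2 it gave 6 higher and 1 lower, where 92.1% of all genes were called higher and 0.648% lower.

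Markers of pluripotent cells had medians of the opposite sign and smaller size. Their summed scaled reads were 392800 with control shRNA, 431400 with KD-1 and 288600 with KD-2, and the median over 15 markers was 0.24 in KD-1 against -0.31 in KD-2. Of these 15, 2 were called higher in both knockdowns (Utf1 and Nr0b1), 0 were called lower in KD-1 and 3 (Zfp42, Dppa4 and Tdgf1) were called lower in KD-2. Dppa5a, the most abundant in the sum over the 3 libraries, had 74575, 111186 and 54008 reads for control, KD-1 and KD-2, and Zfp42 had 82732, 99896 and 54998. Leukocyte markers, of the cells that chemokines attract, were low, with summed scaled reads of 818 with control shRNA, 953.6 with KD-1 and 945.2 with KD-2. Of the 7 with enough reads among 13, led by Laptm5, Cd68 and Coro1a, 1 was called higher (Cd3e, with an interval from -0.29 to 2.56) and 1 lower in KD-1, and 1 higher and 2 lower in KD-2. The defining marker Ptprc had 6, 6 and 12 reads and Adgre1 1, 3 and 4 reads. Summed scaled reads of endothelial markers, led by Pecam1, Tek and Erg, were 4877, 5473 and 3751. Those of epithelial and endoderm markers, led by Cdh1, Epcam and Krt8, were 23550, 22280 and 15500.

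Receptors for the chemokines were then examined. Cxcr2, the receptor of Cxcl1 and Cxcl5, was the most abundant at 6323 reads with control shRNA, 8640 with KD-1 and 6211 with KD-2 (log2 0.22 in KD-1 against -0.13 in KD-2). Ackr3, the scavenging receptor of Cxcl12, had 539, 825 and 1033 reads and was called higher in KD-2 (log2 0.83) but not in KD-1 (log2 0.39). Cxcr4, the signalling receptor of Cxcl12, had 38, 39 and 43 reads. Ccr1 had 31, 24 and 36 reads and was called lower in KD-1 (log2 -0.59), with a counting interval from -1.43 to 0.22 that includes no difference. The receptors Ccr2 (1, 3 and 2 reads), Ccr3 (1, 5 and 0) and Cxcr3 (0, 1 and 6) were at or near 0. Xcr1, the receptor of lymphotactin, had 140, 212 and 166 reads. Over 22 receptors, of which 10 had enough reads, 1 was called higher (Ccr4) and 1 lower (Ccr1) in KD-1, and 2 higher (Ccr4 and Ackr3) and 1 lower (Cx3cr1, with an interval from -1.38 to 0.08) in KD-2.

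The shared receptor chains of the IL-6 family were more abundant than the cytokines. Il6st, the shared signalling chain gp130, had 13956 reads with control shRNA, 12045 with KD-1 and 18113 with KD-2. Lifr, the LIF receptor chain, had 8934, 8758 and 7221 reads, and Il6ra, the IL-6 receptor chain, had 622, 790 and 619. None of these 3 was called in either knockdown. Osmr, the oncostatin M receptor chain, had 3100, 2907 and 5681 reads and was called higher in KD-2 (log2 0.77). Csf1r had 26, 28 and 35 reads, and 873 of its exon bases are shared with Hmgxb3 on the opposite strand, so that these reads may not be its own. Of the 7 cytokine receptors, 1 was called higher (Cntfr, with 5, 20 and 20 reads) and 1 lower (Il11ra1) in KD-1. In KD-2, 3 were called higher (Osmr, Cntfr and Il11ra1) and 0 lower. Il11ra1 had 614, 443 and 1217 reads and has near-identical copies in the mouse genome, so its reads are uncertain.

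Downstream of gp130, none of 14 genes of the LIF, IL-6 and STAT3 pathway was called in KD-1 (median 0.13). In KD-2, 3 were called higher (Socs1, Gbx2 and Bcl3) and 0 lower (median 0.51). Its most abundant genes, the ES cell factors Klf4 and Tfcp2l1 and the phosphatase Ptpn11, had log2 fold changes of 0.04, 0.52 and -0.10 in KD-1 and of 0.15, 0.05 and 0.24 in KD-2. Socs3, a feedback inhibitor that STAT3 induces, had 1404, 1895 and 2003 reads and was not called.

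Among 20 NF-κB factors and targets, 2 (Saa3 and Lcn2) were called higher and 0 lower in KD-1 (median 0.16), and 8 higher and 0 lower in KD-2 (median 0.46). Its most abundant genes were the superoxide dismutase Sod2, the inhibitor Nfkbia and the prostaglandin synthase Ptgs2. Their log2 fold changes were -0.03, 0.16 and -0.00 in KD-1 and -0.01, 0.64 and 0.35 in KD-2, so Nfkbia alone of these 3 was called, in KD-2. The largest in KD-1 was Saa3, an acute phase protein, at 84 reads with control shRNA, 198 with KD-1 and 112 with KD-2.

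Of 20 interferon-stimulated genes, 16 were called lower and 0 higher in KD-1 (median -1.51), and 0 were called in either direction in KD-2 (median 0.17). In the direct comparison of the knockdowns, 18 of the 20 were called lower and 0 higher in KD-1. Isg15, a ubiquitin-like protein, had 701 reads with control shRNA, 94 with KD-1 and 960 with KD-2. The range in KD-1 was from -4.12 (Usp18) to 0.42 (Oas1a). Among the most abundant were Irf1 and Ddx58, at log2 -0.15 and -0.55 in KD-1. Cxcl10, which interferon also induces, lay at log2 -0.21 in KD-1, inside the range of this list but above its median.

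Of 7 genes that control the decay or stability of cytokine mRNA, 0 were called in KD-1. In KD-2, Zfp36, which encodes tristetraprolin and promotes decay of such mRNA, was called higher with 963, 901 and 2140 reads for control, KD-1 and KD-2 (log2 1.04), and Hnrnpd was called lower (log2 -0.60). The most abundant were Elavl1, Rc3h2 and Hnrnpd, with log2 fold changes of -0.38, -0.44 and -0.60 in KD-2.

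Neighbours in the chemokine clusters did not all share the level or direction of the 10 genes. In the cluster of Cxcl5 and Cxcl1 (chr5:90759360-90905938), Cxcl3 had 50 reads with control shRNA, 15 with KD-1 and 98 with KD-2, and Cxcl15 had 98, 52 and 162, both with the order of Cxcl5. Ppbp had 402, 288 and 437 reads, and Pf4 had 9, 3 and 16. Cxcl2, the gene next to Cxcl1, had 61, 140 and 106 reads, with KD-1 the highest as for Il6. In the cluster of Cxcl10 (chr5:92321347-92365485), Cxcl11 had 23, 51 and 56 reads and was above control in both knockdowns, while Cxcl9 had 12, 17 and 3. In the cluster of Ccl2 and Ccl7 (chr11:82035571-82116799), the next genes were near 0, with Ccl11 at 3, 1 and 1 reads, Ccl12 at 0, 0 and 1, and Ccl8 at 4, 4 and 3. In the cluster of Ccl5 (chr11:83525778-83664683), Ccl9 was the most abundant with 685, 958 and 611 reads, Ccl6 had 3, 1 and 9, Ccl3 had 0, 7 and 0, and Ccl4 had 0, 0 and 2.

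Over all 13 other CXC, CX3C and XC chemokines, 9 had enough reads. Of these, 2 were called higher (Cxcl2 and Cxcl11) and 3 lower (Cxcl3, Cxcl15 and Ppbp) in KD-1, and 6 higher and 1 lower (Cxcl9) in KD-2. The most abundant, Cx3cl1, had 616 reads with control shRNA, 494 with KD-1 and 1225 with KD-2. Of 17 other CC chemokines 6 had enough reads, and 0 of them were called in either knockdown. These include Ccl9, Ccl25 with 317, 538 and 283 reads, which shares 56 exon bases with Elavl1, and Ccl27a with 66, 56 and 64, which shares exon bases with Il11ra1. Among 21 other cytokines, of which 13 had enough reads, 0 were called higher and 5 lower (Il11, Il15, Tslp, Ctf1 and Clcf1) in KD-1, and 1 higher (Clcf1) and 2 lower (Il15, with an interval from -1.47 to 0.06, and Osm) in KD-2. Il1rn, the IL-1 receptor antagonist, was the most abundant with 893, 745 and 1382 reads, followed by Tnfsf11 with 768, 835 and 966 and Kitl with 636, 666 and 710. Cytokines known to induce many of the 10 genes in fibroblasts were at or near 0, with Tnf at 2, 4 and 3 reads, Il1b at 0, 0 and 2, Il1a at 4, 3 and 6, and Ifnb1 at 0, 0 and 1.

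Genes with the pattern most like each of the 10 were found by the smallest distance between log2 fold changes in KD-1 and KD-2, among 12743 genes that average at least 100 reads, over the 3 libraries. For Cxcl12 these were Pik3ip1, Lrrtm3 and Wnt10a, and Pik3ip1 had 623, 297 and 1444 reads at a distance of 0.0813. For Cxcl5 they were Gch1, S100b and Tnfrsf11b (nearest distance 0.0179), and for Csf1 Parva, Cpq and Adamtsl5 (0.0178). For Cxcl1 they were Tcn2, Mlycd and Unc5b, for Cxcl10 Adam8, Eid1 and Brinp1, for Ccl2 Adat3, Phlda2 and Rhbdd1, and for Ccl7 9330182L06Rik, Tcf4 and Limd1. For Il6 they were Plekhm1, Setd7 and AY512931, with 732, 1452 and 982 reads for Plekhm1, and for Lif Shroom4, Fastk and Ccrn4l. Ccl5 has too few reads for such a comparison. The nearest gene was farther from Cxcl12 than from any of the other 8 genes.

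Finally, both knockdown libraries were compared to control as 1 group with edgeR's quasi-likelihood test, which has 1 residual degree of freedom. That degree of freedom is the difference between KD-1 and KD-2, and the test moderates each gene's error toward a trend over all genes. The p of a gene is therefore not set by its own difference between the knockdowns alone. None of the 10 genes passed an adjusted p of 0.05, and 0 of them had an unadjusted p under 0.05, while 4 of 21164 genes passed (0.0189%) and 293 had an unadjusted p under 0.05. The lowest unadjusted p from edgeR was that of Cxcl1 (log2 0.59, edgeR quasi-likelihood p of 0.2045, edgeR adjusted p = 0.9998). For Cxcl12, which was below control in KD-1 and above it in KD-2, the log2 fold change of the group was 0.45 with an unadjusted quasi-likelihood p of 0.2802. The Wald test of DESeq2 also called 0 of the 10 genes, with 0 at an unadjusted p under 0.05. At this number of libraries, a miss does not show that the 10 genes are alike in control and knockdown cells.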

How the data were processed

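RNA-Seq (50 bp single-end) was measured in 3 libraries. The authors trimmed reads with Trim Galore 0.4.1, mapped them with TopHat2 2.1.1 to mm10 (GRCm38) and deposited the counts of each gene unnormalized, from reads over a mapping quality minimum. The methods name featureCounts as counter while the submitters' processing notes name HTSeq, and the deposited counts end in 5 summary lines, which were left out here (22.97 to 25.61% of reads were not on a gene). Which strand was counted is not given in the sources used here.

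Counts were scaled by upper-quartile factors, and fold changes used a pseudocount of 0.5 reads. Genes that averaged at least 10 reads were called when past 1.5-fold. Exact 95% intervals (Clopper-Pearson, conditional on the summed reads) cover counting error only. Both knockdowns were compared with control by edgeR 4.0.16 (TMM, quasi-likelihood, Benjamini-Hochberg over 21164 genes; R 4.3.3), and by DESeq2 1.42.0. Alternatives were other scalings, pseudocounts, filters, a 2-fold threshold and a likelihood ratio test at dispersions of 0.01, 0.04 and 0.16. RPKM divided the scaled counts by their mean library total and by exon lengths of GENCODE M21, in which exons of 0 of the 10 genes share bases with another gene. The text names the 10 genes, Nup153, the 3 genes of each list with the most reads, cluster neighbours, receptors and the 3 most alike genes. Some of these are not reported here. Other genes were picked with their values in view. The members and lists were chosen with earlier results of these data known. Scripts were tested on simulated data. Python 3.11.15, pandas 2.3.3, numpy 2.4.6, scipy 1.17.1 and matplotlib 3.10.9 were used.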

Additional observations from a re-analysis of the deposited data

Results flagged for a closer look

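For Cxcl12 and Csf1, the knockdown libraries lay on opposite sides of control and both were past 1.5-fold. The log2 fold change of Cxcl12 was -1.24 for KD-1 and 1.16 for KD-2, and that of Csf1 was -0.80 for KD-1 and 0.66 for KD-2. Whether the knockdowns differ as conditions was not tested, since each is 1 library. Likelihood ratio tests at a preset dispersion, which compare libraries, called both genes lower in KD-1 relative to KD-2 at dispersions of 0.01 and 0.04, and neither at 0.16. Against control, the same test called both genes in each knockdown at 0.01 and 0 of the 10 genes at 0.04 or 0.16. Fibroblast markers had a median of -0.62 for KD-1 and 0.79 for KD-2, and their part in these values was not tested.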

How the results depend on the processing

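None of the 30 log2 fold changes of the 10 genes changed sign under TMM scaling, DESeq2 size factors, total reads or a pseudocount of 5 reads, where the largest shift was 0.47 (Ccl5). In KD-1, the 1 gene called higher became 0 at a 2-fold threshold (3.09% of all genes) and 0 in the likelihood ratio test with a dispersion of 0.01 (2.23%) or 0.04 (0.27%). The 3 called lower became 1 at 2-fold (1.53%) and 0 with a dispersion of 0.04 (0.138%). In KD-2, the 5 called higher became 9 with total reads (23.6%), 2 at 2-fold (5.42%), 3 with a dispersion of 0.01 (11.5%) and 0 with 0.04 (0.306%). Between the knockdowns, the 7 called lower in KD-1 became 4 at 2-fold (7.89%) and 3 with a dispersion of 0.04 (3.23%). With a dispersion of 0.16, 0 of the 16670 genes were called in any of these comparisons. The likelihood ratio test takes its error from the preset dispersion and compares libraries.

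Scaling by the fibroblast marker median, added after seeing the data, shifts all genes by 1 amount per comparison, so that values smaller than the shift turn by construction. It gave 3 higher and 1 lower in KD-1 (57.7% and 0.918% of all genes), 0 higher in KD-2 (1.69%), and 6 higher and 1 lower in KD-1 against KD-2 (92.1% and 0.648%). It turned the direction in KD-2 against control for Cxcl5 (-0.21), Cxcl10 (-0.073), Ccl2 (-0.31), Ccl7 (-0.25), Il6 (-0.47), Lif (-0.32) and Csf1 (-0.13), and in KD-1 against control for Cxcl10 (0.40), Ccl2 (0.55), Ccl5 (0.20) and Ccl7 (0.52). In KD-1 against KD-2 it turned Cxcl1 (0.95), Cxcl5 (0.15), Cxcl10 (0.65), Ccl2 (1.04), Ccl5 (0.042), Ccl7 (0.95), Lif (1.51) and Csf1 (0.12). Scaling by the median of all genes, also added after seeing the data, left every count within 1.5 times. The quasi-likelihood test called 0 of the 10 genes in every setting run, and of all genes it called 2 with upper-quartile factors or DESeq2 size factors and 0 of 16670 with the minimum mean of 10 reads (190 at an unadjusted p under 0.05), while the Wald test called 2.

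Depth limits Ccl5, with 7, 6 and 17 reads, most. Its calls in KD-2 and between the knockdowns were lost at a minimum mean of 100 reads. With 1 library per group, no library can be left out, and variation between cultures is not measured. No paired analysis was possible because each group has 1 library.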
